A study of Mus musculus with 12 samples.

Results

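The effect of interferon-γ (IFN-γ) was measured in haematopoietic stem cells (HSCs) of *Bst2* knockout (KO) mice, by setting 3 libraries from IFN-γ-treated KO mice against 3 libraries from naive KO mice. These 6 libraries were found by their titles, and they are 6 of the 12 bulk RNA-seq libraries of the series. The treated KO mice had received recombinant mouse IFN-γ (labelled 100 µg) and their cells were taken 24 h later, while the naive KO mice had received none. The other 6 libraries came from wild-type (WT) mice, 3 treated in the same way and 3 naive, and all mice were of the C57BL/6 background. HSCs were sorted from leg, pelvis and hip marrow by a gate that kept c-Kit+ CD150+ cells and left out those with lineage markers, CD48 or CD34. How the *Bst2* allele was made, and whether it is lost in all cells of the animal, is not given in the sources used here. The labels do not tie a library to a mouse, so the p-values speak of the spread among libraries, which may be technical.

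The library codes in the titles fall into 3 code series, FL-06, R-07 and R-09, and what these stand for is not stated. Each series holds 1 treated and 1 naive KO library: FL-06 holds KO IFN-γ 1 and KO naive 3, R-07 holds KO IFN-γ 3 and KO naive 2, and R-09 holds KO IFN-γ 2 and KO naive 1. Values per library are given below in that order of series (FL-06, R-07, R-09) in both groups. They are the authors' normalized read counts per gene and are called units. Of 24946 genes, 10816 reached 100 units in at least 3 of the 12 libraries and were tested. Differences are of log2(units + 1), which understates the change of genes at low values. The limma fit used all 12 libraries with the code series as a covariate, so that a log2 fold change in KO is the mean of the 3 differences within a code series.

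IFN-γ binds a receptor of the chains IFNGR1 and IFNGR2, and the kinases JAK1 and JAK2 on it start a signal that reaches gamma-activated sites (GAS) in DNA. Factors induced in this way, among them IRF1, the class II transactivator CIITA and the class I transactivator NLRC5, turn on genes of antigen presentation, of the GTPase defence against intracellular pathogens and of the antiviral response. *Bst2* encodes tetherin, a membrane protein that is itself induced by interferons and holds budding virus particles at the cell surface. HSCs are rare, mostly resting cells of the marrow from which all blood lineages arise, and they carry the IFN-γ receptor.

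*Bst2* was near 0 in all 6 KO libraries, with 24.8, 0 and 18.8 units in treated and 0, 8.89 and 3.67 units in naive KO HSCs, against 152 to 1514 units in the 6 WT libraries. Which part of the gene the deletion removed is not given in the sources used here. Of the genes used to define HSCs, some were present in both KO groups and others were not. *Kit* had 8774, 9331 and 8359.8 units in treated and 10158, 11369 and 7616 units in naive KO HSCs. *Hlf*, a transcription factor of stem cells, had 2403, 2979 and 995 units in treated and 2789, 3398 and 965 units in naive KO HSCs. *Sox17* of the same list was at 0 in all 6 KO libraries. *Ly6a*, a listed surface gene, had 207, 434 and 2222 units in treated and 13.7, 136 and 1647 units in naive KO HSCs. The listed erythroid genes summed to 61160 to 79765 units in treated and 76710 to 102786 units in naive KO HSCs. For the HSC factors and identity genes these sums were 62889 to 73783 and 61220 to 79630 units. Both libraries of R-09 stood apart from the other 4 KO libraries. *Cd34*, which the gate excludes as a protein, had 558, 821 and 3499.8 units in treated and 764, 764 and 3629 units in naive KO HSCs, the highest values being those of R-09. Summed over the 28 listed neutrophil genes, R-09 held 81628 units in the treated and 207015 units in the naive KO library, against 6754 to 7893 units in the other treated and 8237 to 11109 units in the other naive ones. *Xist*, the RNA that coats the inactive X chromosome, was chosen here after its values were seen: it had 14819, 15945 and 232 units in treated and 20714, 20760.4 and 172 units in naive KO HSCs, while the Y-linked *Ddx3y* had 420.2, 383 and 428 units in treated and 388, 336 and 511 units in naive ones, so that it was read in each library. *Eif2s3y*, also Y-linked, had 153, 189 and 468 units in treated and 382, 73.5 and 638 units in naive ones, highest in R-09, where *Xist* was lowest. The Y-linked *Kdm5d* and *Uty* did not follow this pattern, being lowest in R-09 among the naive libraries. *Kdm5d* had 149, 130 and 150 units in treated and 293, 352 and 102 units in naive ones. *Uty* had 119, 74.8 and 221 units in treated and 410, 254 and 240 units in naive ones. The labels give neither the sex of the mice nor a pooling of animals. The values were not whole reads, and the depth is therefore unknown. The 6 KO libraries held between 13828900 and 17468400 units in all. WT naive 2, which enters the spread of the fit, had fewer genes above 0 (10567) than the other 11 libraries (12395 to 14640).

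The genes at the head of the ranking in KO HSCs encode antigen presentation and interferon-induced defence proteins, and they were higher after IFN-γ. Of the 10 genes of smallest p, 10 were higher in treated KO HSCs and all 10 belong to the interferon and antigen presentation lists, which hold 226 of the 10816 genes tested. Of the first 50, 36 were higher, 14 were lower and 27 belong to these lists. None of the 10816 genes passed an adjusted p of 0.05 (limma, Benjamini-Hochberg over all genes tested), in either direction, a background of 0%. The smallest adjusted p was 0.164, shared by 6 genes: *H2-T22*, *Tap1*, *H2-Eb1*, *H2-Ab1*, *H2-K1* and *Cd74*. At an unadjusted p under 0.05, 183 genes were higher (1.69% of those tested) and 135 were lower (1.25%). These shares are the background for all such counts given below. Without WT naive 2, 7 genes passed the adjusted threshold, all higher and all on these lists, namely *Cd74*, *H2-T22*, *Oas3*, *H2-Q9*, *Tap1*, *H2-Eb1* and *H2-Ab1*. The unadjusted counts were then 401 higher and 316 lower genes. They were 299 higher without KO naive 1, and 72, 79 and 82 lower without KO IFN-γ 1, WT IFN-γ 1 and WT IFN-γ 2.

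**Figure D1:**
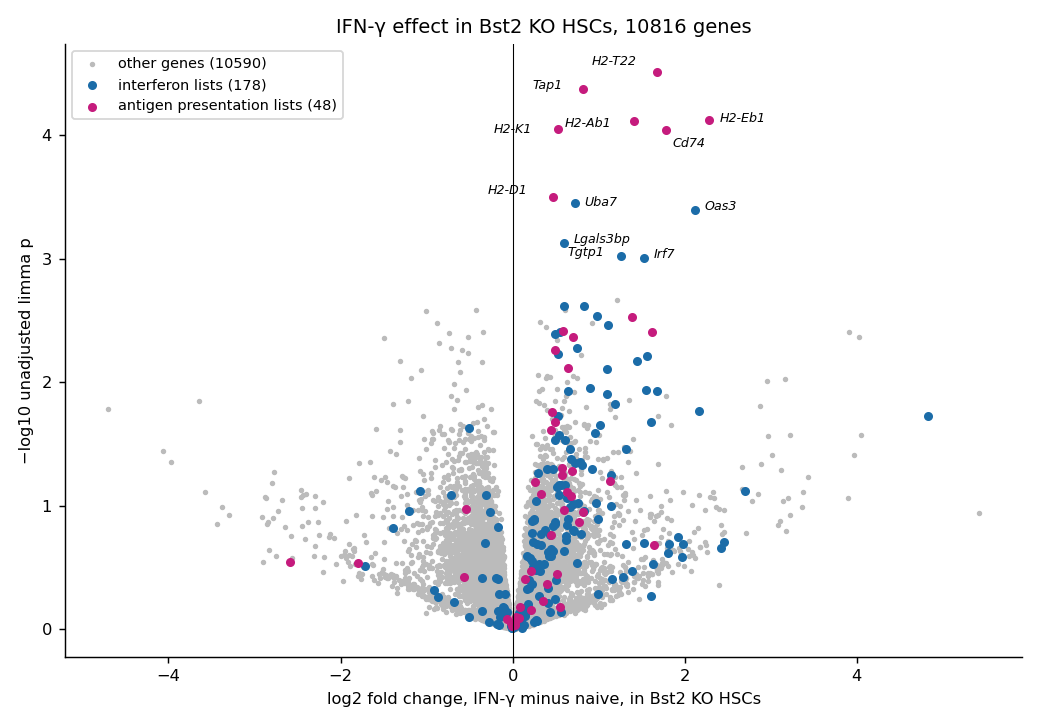
Log2 fold change (IFN-γ minus naive, *Bst2* KO HSCs, x axis) against −log10 of the unadjusted limma p (y axis) for the 10816 genes tested. Blue and magenta points are the 178 genes on interferon lists alone and the 48 on antigen presentation lists, grey points are the 10590 others, and the 12 genes of smallest p are named: all of them lie right of 0.

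Taken as 1 set, 184 of the 226 tested interferon and antigen presentation genes lay above 0, against 51% of all genes tested, with a median log2 fold change of 0.45, against 0.0068 over all genes. At an unadjusted p under 0.05, 54 of them were higher and 1 was lower. In all 3 code series 100 of them were higher and 8 were lower, where the background over all genes tested was 11.7% higher and 12.1% lower. The treated and naive KO libraries did not overlap for 25 higher genes and 1 lower gene, with a background of 1.22% and 0.971%. Of the 304 listed genes, 7 were not found in the table and 71 more did not reach the minimum value, so that these counts leave them out. The sizes differed between the code series: FL-06 had a median over the 226 genes of 0.61, R-07 one of 0.54 and R-09 one of 0.15, and 67, 61 and 16 genes in the same order were over 2-fold higher in the treated library. These members and lists were chosen with earlier results of these data known. The count of 54 was 30 without KO naive 2, 29 without KO IFN-γ 3, 32 without KO naive 3 and 85 without WT naive 2. It was 15 with no code series in the model and 11 with the replicate block in its place, so it depends on that covariate, and 82 with array weights and 92 in KO alone without R-09.

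**Figure D2:**
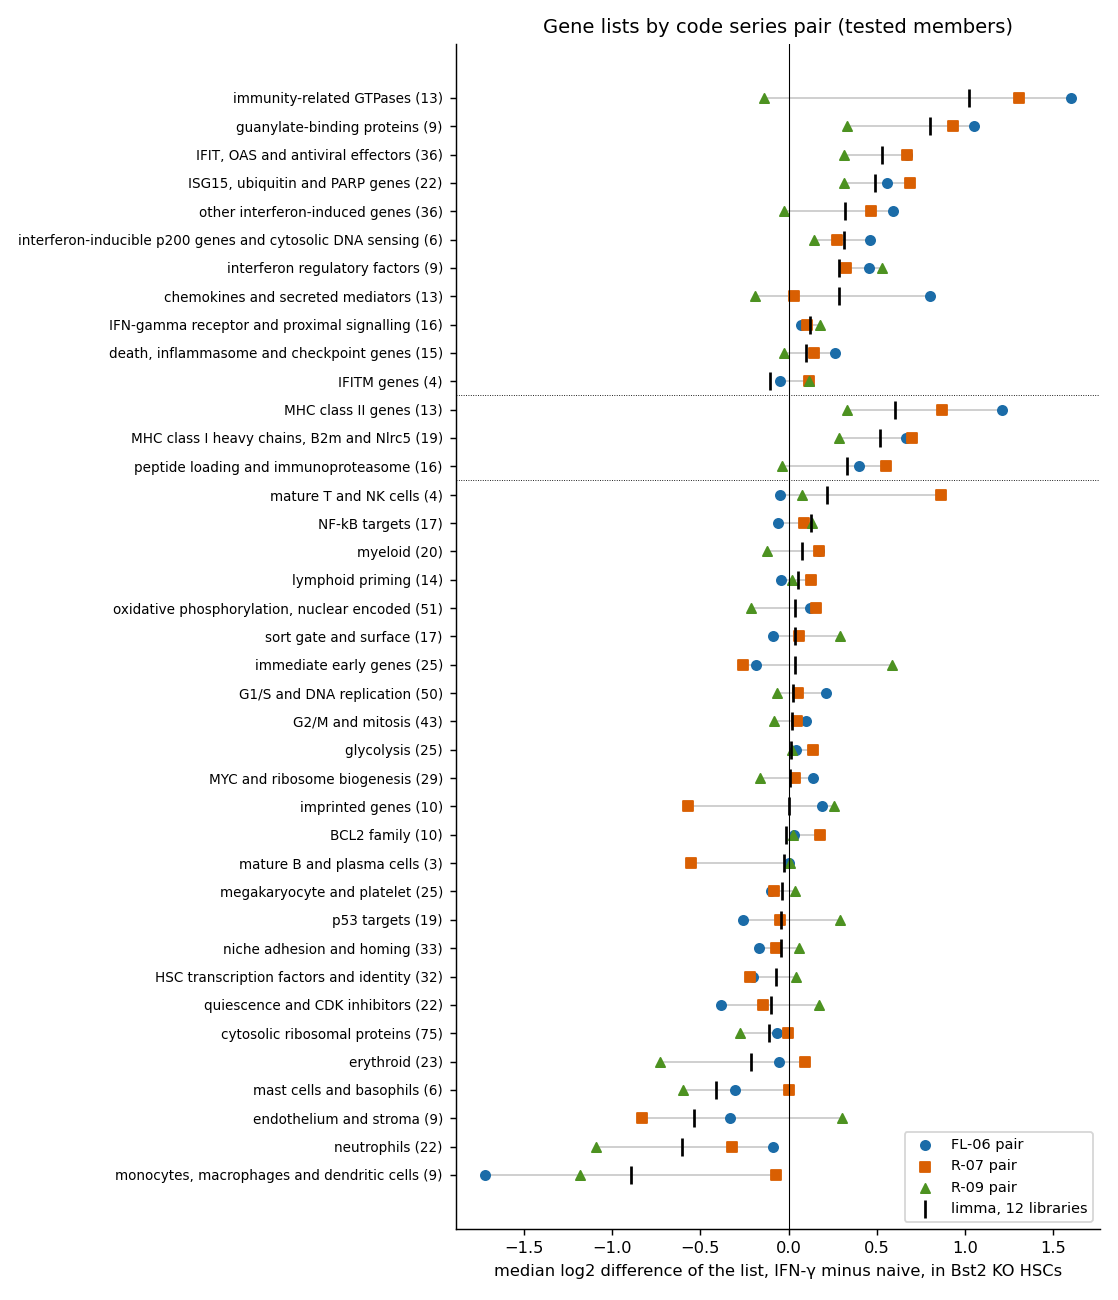
Median log2 difference (IFN-γ minus naive, x axis) of the tested members of each list in *Bst2* KO HSCs, with the number of members in brackets. Symbols are the treated minus the naive library within each code series and the black tick is the median of the limma estimates. Dotted lines part the interferon lists, the antigen presentation lists and the others; the immunity-related GTPases have medians of 1.60 (FL-06), 1.30 (R-07) and −0.14 (R-09).

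MHC class II molecules show peptides to helper T cells, and 3 of the 6 genes of smallest adjusted p are on the class II list. *H2-Eb1* encodes a class II β chain, that of I-E, and whether these mice, of the C57BL/6 background, make the I-E molecule was not tested. The values of this gene are of RNA, so they do not show that I-E is made or raised. Its transcript had 1350.5, 1181 and 1192 units in treated KO HSCs, against 127, 217 and 591 units in naive KO HSCs. The groups did not overlap, and the naive R-09 value was the highest of its group. The log2 fold change was 2.28 (SE 0.37, limma adjusted p = 0.164), with within-series differences of 3.40, 2.44 and 1.01. *Cd74*, the invariant chain that escorts class II molecules to the endosome, had 3560.1, 4210.5 and 8293 units in treated and 797, 1070.5 and 3612 units in naive KO HSCs. The naive R-09 library lay among the treated ones, so the groups overlapped although each treated library was higher than the naive one of its series (log2 fold change 1.78, SE 0.30, adjusted p = 0.164). *H2-Ab1*, the I-A β chain, had 1107, 1912 and 4298 units in treated and 409, 483 and 2476 units in naive KO HSCs, and *H2-Aa*, the I-A α chain, had 926, 1188 and 1902 units in treated and 278, 192 and 1325 units in naive KO HSCs. Their log2 fold changes were 1.40 (SE 0.23, adjusted p = 0.164) and 1.62 (SE 0.45, adjusted p = 1.00). The sum of these 4 transcripts was 6943, 8492 and 15684 units in treated and 1611, 1962 and 8004 units in naive KO HSCs. *Ciita*, whose product turns on the class II genes, was low in both groups, with 256, 141 and 185 units in treated and 91.7, 39.1 and 58.7 units in naive KO HSCs, without overlap (log2 fold change 1.65, SE 1.23, unadjusted p = 0.209). Of the 13 tested class II genes 11 lay above 0, and 4 were higher at an unadjusted p under 0.05 (background 1.69%). *Rfxank*, a subunit of the complex that binds class II promoters, lay below 0 with 194, 226 and 614 units in treated and 310.0, 419 and 639.5 units in naive KO HSCs (log2 fold change −0.54, SE 0.31).

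**Figure D3:**
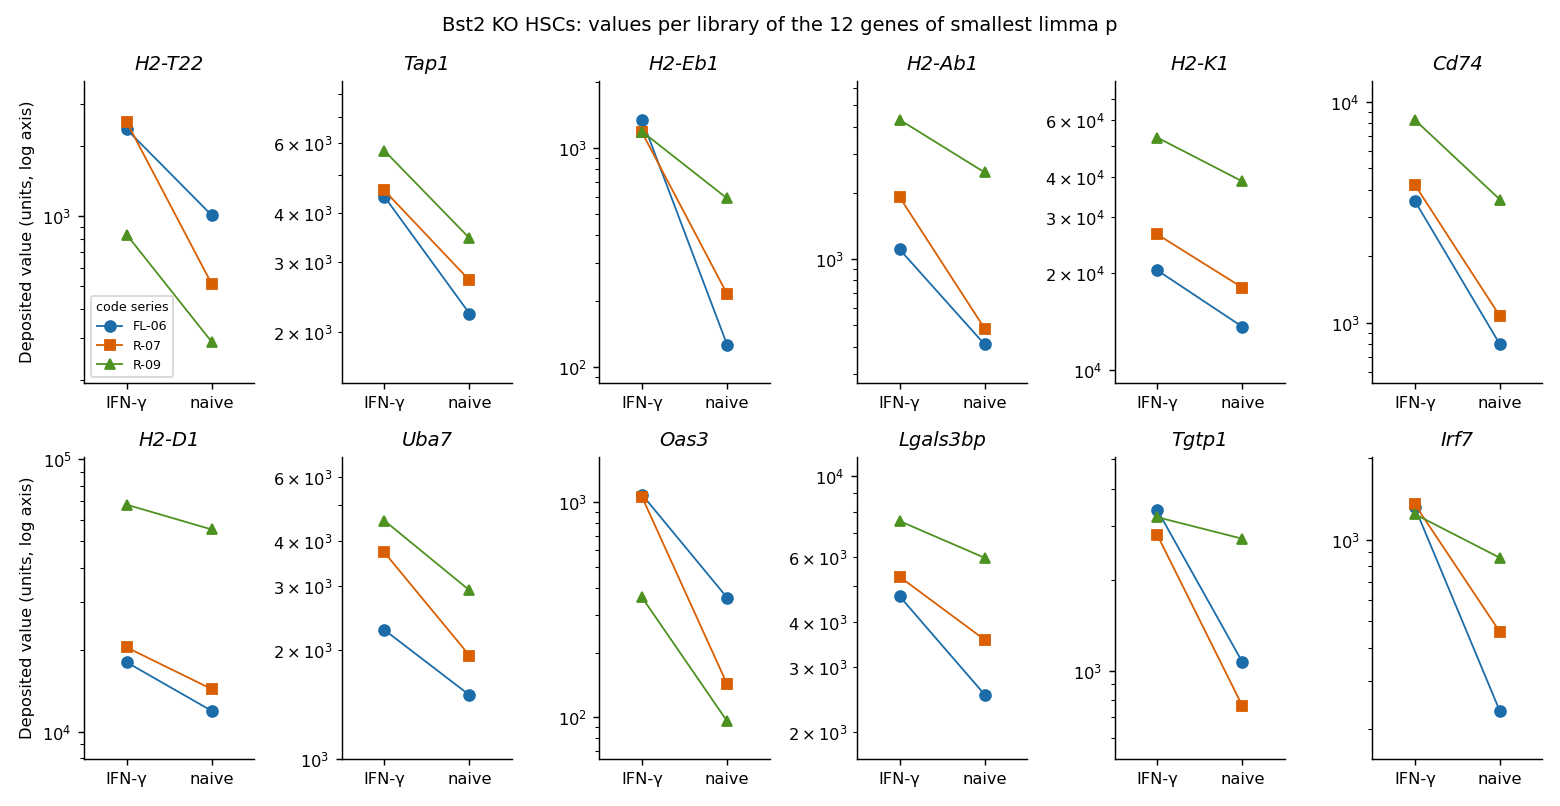
Values per library (units, log axis) of the 12 genes of smallest limma p in *Bst2* KO HSCs, treated left and naive right, with lines joining the 2 libraries of a code series. All 36 lines slope down from IFN-γ to naive, and the R-09 lines of *Tgtp1* and *Irf7* are flatter than those of FL-06 and R-07.

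MHC class I molecules display peptides from inside the cell, and most genes that build and load them lay above 0. *H2-T22*, one of the non-classical genes, had the smallest p of all genes tested, with 2345, 2518 and 831 units in treated and 1007, 512 and 289 units in naive KO HSCs. The groups overlapped, since the naive FL-06 library was above the treated R-09 library, and the log2 fold change was 1.68 (SE 0.25, limma adjusted p = 0.164). The classical chain *H2-K1* had 20429.9, 26436 and 52966 units in treated KO HSCs, against 13624, 18045 and 38675 units in naive KO HSCs. The classical chain *H2-D1* had 17977, 20381 and 68070.1 units in treated KO HSCs, against 11921, 14330.2 and 55219.5 units in naive KO HSCs. Their log2 fold changes of 0.53 (SE 0.088, adjusted p = 0.164) and 0.47 (SE 0.091, adjusted p = 0.476) had the same direction in each code series. *B2m*, the light chain that all class I molecules share, was higher in FL-06 and R-07 and not in R-09, with 12795, 16816 and 43896 units in treated and 7465, 10584 and 46685 units in naive KO HSCs (log2 fold change 0.45, SE 0.16, unadjusted p = 0.0174). Of the 19 tested members of the class I list, 16 lay above 0 and 8 were higher at an unadjusted p under 0.05 (background 1.69%). The class I genes have near-identical copies, so how reads were shared between *H2-T22*, *H2-Q9*, *H2-K1* and their relatives is uncertain.

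*Tap1*, a subunit of the transporter that carries peptides into the endoplasmic reticulum, differed by similar amounts in the 3 code series. It had 4399, 4559 and 5745 units in treated and 2229, 2705 and 3455 units in naive KO HSCs, with no overlap, and within-series differences of 0.98, 0.75 and 0.73 (log2 fold change 0.82, SE 0.13, adjusted p = 0.164). Its partner *Tap2* had 1737, 2162 and 5539 units in treated and 1977, 1952 and 4041 units in naive KO HSCs, which overlapped (log2 fold change 0.14, SE 0.16). *Tapbp* (tapasin), which holds class I molecules at the transporter, had 3657, 4252 and 6529 units in treated and 1982, 3030.0 and 5049 units in naive KO HSCs (log2 fold change 0.58, SE 0.16, unadjusted p = 0.00383). The interferon-induced proteasome subunits *Psmb8*, *Psmb9* and *Psmb10* were higher in the treated libraries of FL-06 and R-07, by 1.16 and 0.86 (*Psmb8*), 0.97 and 1.32 (*Psmb9*) and 1.29 and 0.54 (*Psmb10*) on the log2 scale. In R-09 the differences of these 3 genes were 0.085, −0.22 and 0.057. The proteasome activator genes *Psme1* and *Psme2* gave the same picture, with differences by series of 0.78, 0.68 and −0.12 for *Psme1* and 0.50, 0.98 and −0.015 for *Psme2*. Of the 16 tested genes of peptide loading and the immunoproteasome, 14 lay above 0 and 5 were higher at an unadjusted p under 0.05 (background 1.69%).

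The components that carry the IFN-γ signal were less uniform. The receptor chain *Ifngr1* had 3077, 2341 and 3005 units in treated and 3625, 2559 and 4075 units in naive KO HSCs, with a log2 fold change of −0.27 (SE 0.16) that did not pass. The kinases *Jak1* and *Jak2* had log2 fold changes of −0.0087 (SE 0.12) and −0.061 (SE 0.17), whose sign differed between settings. *Socs1*, a feedback inhibitor of the kinases, had 119, 66.1 and 269.7 units in treated and 19.6, 14.9 and 149.6 units in naive KO HSCs and was higher in each series, though at low values (log2 fold change 1.82, SE 1.35, unadjusted p = 0.204). Over the 16 tested genes of receptor and signalling the median was 0.12 and 8 lay above 0.

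Among the interferon regulatory factors, *Irf7* separated the groups. It had 1319, 1353 and 1245 units in treated KO HSCs, against 233, 457 and 859 units in naive KO HSCs (log2 fold change 1.53, SE 0.34, adjusted p = 0.885). *Irf9*, a DNA-binding factor of the interferon response, also did not overlap, with 1640.0, 1670.3 and 1843 units in treated and 1291, 1330.3 and 1574 units in naive KO HSCs, a smaller difference (log2 fold change 0.30, SE 0.14, unadjusted p = 0.0547). *Irf1*, an early target of the IFN-γ signal, had 1407, 1737 and 2242 units in treated and 1176, 1188 and 2177 units in naive KO HSCs and overlapped (log2 fold change 0.28, SE 0.21). Of the 9 tested factors 8 lay above 0, the exception being *Irf2*, a repressor of IRF1 targets, at −0.11 (SE 0.24).

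The interferon-induced GTPases, which attack the vacuoles of intracellular pathogens, had the highest list medians of the interferon lists in the fit and in R-07. In R-09 the median of the immunity-related GTPases was −0.14 and that of the guanylate-binding proteins was 0.33, below the 0.53 of the interferon regulatory factors. All 9 tested guanylate-binding proteins lay above 0, with a median of 0.80, and 4 were higher at an unadjusted p under 0.05 (background 1.69%). *Gbp3* had 2038, 1461 and 889 units in treated and 1425, 673 and 491 units in naive KO HSCs (log2 fold change 0.83, SE 0.21, unadjusted p = 0.00243), and *Gbp5* had 1133, 668 and 204 units in treated and 317, 479.6 and 103 units in naive KO HSCs (log2 fold change 1.10, SE 0.37, unadjusted p = 0.0125). *Gbp10* had 375, 399 and 108 units in treated KO HSCs and 0, 72.8 and 8.69 units in naive KO HSCs, listed at 0 in naive FL-06, and did not overlap. Summed over the 11 listed guanylate-binding proteins the treated KO libraries held 12323, 9820.0 and 5389 units, against 6068, 5120.1 and 5267 units in the naive ones. The sums of the R-09 pair were nearly equal.

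Of the 13 tested immunity-related GTPases 11 lay above 0, with a median of 1.02, and 6 were higher at an unadjusted p under 0.05 (background 1.69%). *Tgtp1* had 3401, 2812 and 3219 units in treated KO HSCs, against 1068, 765 and 2731 units in naive KO HSCs, without overlap (log2 fold change 1.26, SE 0.28, adjusted p = 0.885). *Igtp* had 1786, 1687 and 1831 units in treated and 464, 661 and 1655 units in naive KO HSCs, also without overlap (log2 fold change 1.15, SE 0.54, unadjusted p = 0.0564). *Iigp1* had 1716, 1773 and 955 units in treated and 415, 551 and 1064 units in naive KO HSCs and *Ifi47* had 882, 1238 and 3709.9 units in treated and 289.9, 426 and 3370.2 units in naive KO HSCs. The naive R-09 library held some of these transcripts near or above the treated values of the other series: the treated FL-06 and R-07 libraries had 1786 and 1687 units of *Igtp* and 1669 and 1746 units of *Irgm1*, and the naive R-09 library had 1655 and 2719.5 units of these genes. The genes of this family are close paralogs, and *Tgtp1* and *Tgtp2* in particular share sequence.

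The antiviral effectors and the ISG15 system had medians of 0.53 over 36 tested genes and 0.49 over 22. *Oas3*, an antiviral enzyme that senses double-stranded RNA, had 1087, 1061 and 362 units in treated KO HSCs, against 361, 143 and 96.1 units in naive KO HSCs. The groups did not overlap, though the treated R-09 and the naive FL-06 values were nearly equal (log2 fold change 2.12, SE 0.42, adjusted p = 0.483). *Oasl2* had 1434, 1593 and 1719.6 units in treated and 716, 605 and 1178 units in naive KO HSCs, and *Ifit1*, which binds viral RNA caps, had 624, 364 and 454 units in treated and 263, 65.9 and 227 units in naive KO HSCs, both without overlap. Their log2 fold changes were 0.98 (SE 0.26, unadjusted p = 0.00291) and 1.56 (SE 0.46, unadjusted p = 0.00611). *Zbp1*, a sensor of Z-form nucleic acid, had 529, 1067 and 245 units in treated and 132, 235 and 174 units in naive KO HSCs, and the helicase *Ddx60* had 575, 597 and 231 units in treated and 111, 199 and 108 units in naive KO HSCs. *Uba7*, the activating enzyme of ISG15, had 2268, 3708 and 4538 units in treated and 1499.7, 1928 and 2917 units in naive KO HSCs (log2 fold change 0.73, SE 0.14, adjusted p = 0.476). *Isg15* itself had 317, 332 and 357 units in treated and 55.8, 63.4 and 239.9 units in naive KO HSCs, without overlap, but its spread over the 12 libraries was wide (log2 fold change 1.81, SE 1.46, unadjusted p = 0.242). *Ifitm3*, which blocks virus entry, had 2326, 2378 and 14072 units in treated and 1082, 1008 and 10876 units in naive KO HSCs (log2 fold change 0.90, SE 0.30, unadjusted p = 0.0112), while the other 3 tested IFITM genes lay below 0.

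Of 13 chemokines and secreted mediators 10 lay above 0, with medians of 0.80 (FL-06), 0.029 (R-07) and −0.19 (R-09). *Lgals9*, a secreted galectin, had 7779.7, 8209 and 13387 units in treated and 4112, 4958 and 13331 units in naive KO HSCs (log2 fold change 0.55, SE 0.15, unadjusted p = 0.00394). *Cxcl10*, a chemokine that draws T cells, had 0, 87 and 140.3 units in treated and 0, 0 and 80 units in naive KO HSCs and had an unadjusted p of 0.22. Of 15 death, inflammasome and checkpoint genes 0 had an unadjusted p under 0.05. Over all genes tested 1.69% were higher and 1.25% lower, so 0 of 15 does not set this list apart. *Ripk1*, a kinase of cell death signalling, was lower without overlap, though the treated and naive R-09 values were nearly equal. It had 1167, 1414 and 1536 units in treated and 2022, 1583 and 1544 units in naive KO HSCs (log2 fold change −0.32, SE 0.24). Of 36 other interferon-induced genes 28 lay above 0 and 6 were higher at an unadjusted p under 0.05. *Lgals3bp*, a secreted scavenger receptor protein, had 4695, 5310.0 and 7544 units in treated and 2527, 3571 and 5984 units in naive KO HSCs, higher in each series (log2 fold change 0.60, SE 0.13, adjusted p = 0.809). *Gvin1*, a very large interferon-inducible GTPase, differed in sign between series, with 17501, 8189 and 55.9 units in treated and 4142, 1722 and 918 units in naive KO HSCs and differences of 2.08, 2.25 and −4.01.

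The 300 bases around the annotated start of each gene (250 before and 50 after it, RefSeq, GRCm38.p6) were searched for 2 motifs on both strands: GAAANNGAAA, the core of the interferon-stimulated response element bound by factors of the IRF family, and TTCNNNGAA, the GAS core. The 2 patterns share letters but were counted separately. The sources used here do not give the genome build of the deposited values, and these positions belong to RefSeq alone. Of the 226 tested interferon and antigen presentation genes 169 matched by symbol, and 33.1% of them held the first motif and 18.3% the second. Over the 8603 tested genes that matched, the shares were 3.86% and 8.18%, and over all 32851 promoters of the table they were 3.44% and 8.3%. Among the 12 higher genes of smallest p without overlap, 11 matched, of which 5 held the first motif and 2 the second. Most of these 12 genes are themselves on the interferon and antigen presentation lists. Among the 12 lower genes chosen in the same way, 8 matched, of which 0 held the first motif and 1 the second. At a share of 3.86% over the genes tested, 0 of 8 does not set the lower genes apart. A match is a description of letters, not a bound site.

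Promoters of 3 of the leading genes are shown because they differ in these motifs. Capitals mark the matches, and the last 50 bases of each lie after the start. *Tgtp1* (chr11:48992197-48992496, minus strand) holds a GAS core 88 to 80 bases before the start and a response element core 77 to 68 bases before it. *Oas3* (chr5:120777610-120777909, minus strand) holds a response element core 75 to 66 bases before the start. *H2-Eb1* (chr17:34305617-34305916, plus strand) holds neither in this window, which also holds for *Tap1*, *Irf7* and *Oasl2*.
Tgtp1: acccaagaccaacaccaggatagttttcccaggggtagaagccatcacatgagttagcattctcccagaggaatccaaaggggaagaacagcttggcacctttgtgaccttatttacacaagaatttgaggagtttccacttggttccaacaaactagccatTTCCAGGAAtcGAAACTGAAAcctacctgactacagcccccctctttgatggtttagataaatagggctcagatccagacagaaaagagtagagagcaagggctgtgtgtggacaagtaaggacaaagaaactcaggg
Oas3: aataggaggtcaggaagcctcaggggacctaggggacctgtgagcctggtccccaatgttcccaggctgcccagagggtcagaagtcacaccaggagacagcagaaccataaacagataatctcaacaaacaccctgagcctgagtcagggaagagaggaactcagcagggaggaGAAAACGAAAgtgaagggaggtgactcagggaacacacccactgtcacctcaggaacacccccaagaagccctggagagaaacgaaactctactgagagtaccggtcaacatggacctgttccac
H2-Eb1: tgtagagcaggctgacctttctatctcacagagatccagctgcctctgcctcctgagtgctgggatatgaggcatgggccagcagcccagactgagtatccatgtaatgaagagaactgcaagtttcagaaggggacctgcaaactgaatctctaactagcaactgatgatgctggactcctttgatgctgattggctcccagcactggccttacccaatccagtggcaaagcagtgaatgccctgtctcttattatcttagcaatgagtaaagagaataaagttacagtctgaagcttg

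The medians of the stem cell and cell cycle lists lay near 0 in the fit, while the stem cell lists differed in sign between the code series. By series (FL-06, R-07, R-09) the medians were −0.20, −0.22 and 0.040 for HSC factors and −0.38, −0.14 and 0.17 for quiescence genes, so that R-09 lay on the other side of 0. Those of 10 imprinted genes were 0.19, −0.57 and 0.25. Of 32 tested transcription factors and identity genes of HSCs, 10 lay above 0 (median −0.072), against 51% of all genes tested, and 1 was lower at an unadjusted p under 0.05. That gene was *Msi2*, an RNA-binding protein of stem cells, with 2455, 3306 and 185 units in treated and 4029, 4227 and 259 units in naive KO HSCs (log2 fold change −0.52, SE 0.20, unadjusted p = 0.0259). *Gata2* had 7524, 7238 and 8724 units in treated and 8592, 8591 and 6808 units in naive KO HSCs (log2 fold change −0.027, SE 0.17). Of 22 quiescence genes 6 lay above 0, and *Txnip*, which restrains glucose uptake and is abundant in resting HSCs, was lower in each series, with 5545, 7397 and 9748 units in treated and 8443, 10526 and 10935 units in naive KO HSCs (log2 fold change −0.43, SE 0.11, unadjusted p = 0.00259). Among 50 genes of G1/S and DNA replication the median was 0.027. At an unadjusted p under 0.05, 4 were higher and 1 was lower, against 1.69% and 1.25% of all genes tested. *Mcm2*, a subunit of the replicative helicase, had 9463, 9524 and 9459 units in treated KO HSCs, against 7557, 8078 and 7246 units in naive KO HSCs, without overlap (log2 fold change 0.32, SE 0.084, unadjusted p = 0.00325). *Mcm3* of the same helicase and *E2f1*, a driver of S-phase genes, were higher in each series, *Mcm3* by 0.25, 0.35 and 0.28 and *E2f1* by 0.71, 0.82 and 0.36 on the log2 scale. *Gins4*, another part of the replication machinery, was lower in each series, with 741, 580.2 and 1323 units in treated and 1171, 981 and 1774 units in naive KO HSCs (log2 fold change −0.61, SE 0.19, unadjusted p = 0.00822). Among 43 genes of G2/M, *Ndc80* of the kinetochore had 1097, 1031 and 651 units in treated and 543, 553 and 630.2 units in naive KO HSCs without overlap, and *Nusap1* of the spindle lay below 0 at −0.43 (SE 0.19).

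*Cd48*, whose protein the sort excludes, had 99.3, 118 and 368 units in treated and 8.37, 1.08 and 467 units in naive KO HSCs (log2 fold change 2.97, SE 1.17, unadjusted p = 0.0274). It was higher in the treated libraries of FL-06 and R-07, where the naive values were under 10 units, and lower in that of R-09. *Slamf1*, the gene of CD150, had 317, 281 and 696 units in treated and 721, 289 and 569 units in naive KO HSCs, which overlapped (log2 fold change −0.31, SE 0.33). Of 14 lymphoid priming genes 8 lay above 0, with a median of 0.051. At an unadjusted p under 0.05, 2 were higher (14.3%, against 1.69% of all genes tested). *Igll1*, a surrogate light chain of early B cells, had 54.1, 46.1 and 89.8 units in treated and 0, 9.37 and 5.73 units in naive KO HSCs. It stayed under 100 units in all 6 KO libraries. *Dntt*, the enzyme that adds bases at antigen receptor joints, had 192, 293 and 105 units in treated and 0.407, 192 and 86.3 units in naive KO HSCs. Its differences by series were 7.10, 0.61 and 0.28, so its mean rests mostly on the low naive FL-06 value. Immediate early genes, which respond to handling of cells, had opposite medians within the code series, with 0.59 in R-09, −0.19 in FL-06 and −0.26 in R-07.

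The 12 lower genes of smallest p without overlap, among genes whose mean log2 value reached 7, included 1 gene of the lists, *Rhag*. *Tfdp2*, a partner of E2F factors, had 1297, 1237 and 1077 units in treated KO HSCs, against 1953, 1835 and 1423 units in naive KO HSCs (log2 fold change −0.52, SE 0.15, unadjusted p = 0.00583). *Rhag*, a membrane protein of the red cell lineage, had 243, 449 and 435 units in treated and 848, 666 and 1054 units in naive KO HSCs (log2 fold change −1.21, SE 0.42, unadjusted p = 0.0143). *Vps33b*, which serves vesicle fusion, had 665, 565 and 773 units in treated and 925, 845 and 1241 units in naive KO HSCs. The other 9 were *D11Wsu47e*, *Emc8*, *Epdr1*, *Ccdc85b*, *Oraov1*, *Rbak*, *Zfp839*, *Polb* and *Hcfc2*, with log2 fold changes from −0.92 (*D11Wsu47e*) to −0.40 (*Emc8*) and an adjusted p of 1.00 each. Among the 12 higher genes chosen by the same rule, 10 were on the interferon and antigen presentation lists and the other 2 were *Mcm2* and *Col16a1*, a minor collagen, with 1500.4, 903 and 832 units in treated and 762, 585 and 368 units in naive KO HSCs (log2 fold change 0.93, SE 0.25, unadjusted p = 0.00329). Cytosolic ribosomal protein genes lay slightly below 0: of 75, 9 were above 0 and the median was −0.11 (−0.068 in FL-06, −0.0059 in R-07, −0.28 in R-09). At an unadjusted p under 0.05, 7 were lower (background 1.25%). *Rpl28* was first among them, with 8435, 8478 and 2820.0 units in treated and 10334, 11489 and 3446 units in naive KO HSCs.

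Neutrophil and erythroid genes had their lowest list medians in R-09. In bulk RNA fewer cells of a type and less RNA per cell cannot be told apart. Of 22 tested neutrophil genes 7 were lower at an unadjusted p under 0.05 (background 1.25%) and 0 were higher. The list medians by series were −0.088, −0.32 and −1.09, the last in R-09. *S100a9*, an alarm protein of neutrophils, had 1136, 1462 and 14179 units in treated and 1482, 2363 and 40324 units in naive KO HSCs (log2 fold change −0.86, SE 0.24, unadjusted p = 0.00482). Of 23 erythroid genes 4 were lower by the same rule (background 1.25%), *Rhag*, *Car1*, *Rhd* and *Car2*. The erythroid list medians were −0.053, 0.095 and −0.73 in the same order of series. The macrophage genes *C1qa* and *C1qb* of the complement pathway (212 and 423 units in the treated and 709.5 and 1369 units in the naive R-09 library) and *Vcam1*, an adhesion molecule that macrophages and stroma carry, were highest in the naive R-09 library. *Vcam1* had 48.2, 70.3 and 359.5 units in treated and 183, 91.9 and 1349 units in naive KO HSCs (log2 fold change −1.40, SE 0.48, unadjusted p = 0.015). Of the 26 listed monocyte, macrophage and dendritic cell genes, 12 stayed under 100 units in all 6 KO libraries and the summed values were 1145 to 2842 units in treated and 1166 to 6624 units in naive KO HSCs. Of the lists of other mature cells some members were at 0 in all 6 KO libraries, among them *Cd3e*, *Cd8b1* and *Ncr1* of T and NK cells, *Itgax* and *Siglech* of dendritic cells, *Mcpt4* of mast cells and *Col1a1* of stroma, and other members of the same lists were present. *Nkg7* of cytotoxic cells had 178, 209.5 and 3569 units in treated and 87.8, 116 and 3719.9 units in naive KO HSCs, highest in R-09. The basophil gene *Mcpt8* had 0, 0 and 56.7 units in treated and 0, 0 and 311 units in naive KO HSCs, and *Prss34* had 9.95, 0 and 33.1 units in treated and 0, 0 and 456 units in naive KO HSCs, both highest in naive R-09. *Zbtb46*, a factor of dendritic cells, had 571, 527 and 109.6 units in treated and 726, 553 and 249 units in naive KO HSCs, lowest in R-09. *Col1a2* of stroma had 37.5, 118 and 75.3 units in treated and 150.2, 393 and 41.6 units in naive KO HSCs. The sum of the T and NK cell list was higher in R-09, at 5301 units in the treated and 5270.2 units in the naive library, than in the other treated (704 to 831 units) and naive (807 to 1025 units) ones. The part that these mature-cell transcripts have in the interferon values of R-09 was not tested. Over FL-06 and R-07 alone the log2 fold change of *H2-Eb1* was 2.92, of *Cd74* 2.07 and of *Irf7* 2.03. These genes had their smallest differences in R-09 (1.01, 1.20 and 0.53). Leaving R-09 out therefore raises their mean and does not test that part.

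**Figure D4:**
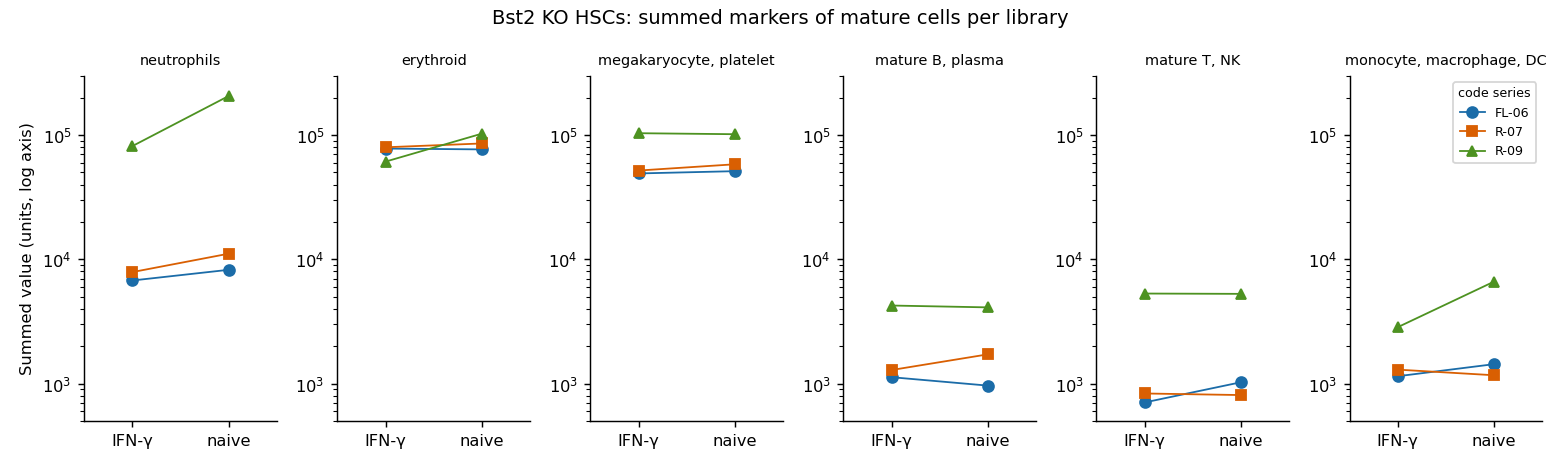
Summed values (units, log axis) of the listed markers of 6 kinds of mature blood cells in each *Bst2* KO library, treated left and naive right, with lines joining the libraries of a code series. The R-09 libraries hold 81628 (IFN-γ) and 207015 (naive) units of neutrophil genes, above the 6754 to 11109 units of the other 4 libraries.

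The IFN-γ effect in KO HSCs was then set against that in WT HSCs, which rests on other libraries (2 FL-06 pairs and 1 R-09 pair, none from R-07), by the difference of the effects in the same fit. None of the 10816 genes passed an adjusted p of 0.05 (background 0%, smallest adjusted p = 0.933), and 367 had an unadjusted p under 0.05 (3.39%). Of the 226 interferon and antigen presentation genes 5 had one (2.21%), all with a lower effect in KO: *Oas1c*, *Gch1*, *Irgq*, *Cd47* and *Il15*. Of these 226 genes 162 lay above 0 in both genotypes, 184 in KO and 192 in WT. Over all 10816 genes tested, 3620 lay above 0 in both, 5517 in KO and 6726 in WT. Their median log2 fold change was 0.45 in KO and 0.53 in WT HSCs, beside 0.0068 and 0.11 over all genes tested. For the leading genes the interval of the difference included 0. *Tap1* had log2 fold changes of 0.82 in KO and 0.89 in WT HSCs, a difference of −0.065 with a 95% interval from −0.46 to 0.33. *H2-K1* had 0.53 and 0.67 (difference −0.14, interval −0.41 to 0.14), and *H2-Ab1* had 1.40 and 1.48 (difference −0.077, interval −0.79 to 0.64). *Cd74* had 1.78 in KO and 2.55 in WT HSCs (difference −0.77, interval −1.70 to 0.15, unadjusted p = 0.0925). These intervals are wide, up to more than 2-fold for *Cd74*, so that they do not show the effects to be alike. Without WT naive 3 the difference passed for 2 genes, without WT IFN-γ 3 for 1 and without the 4 R-09 libraries for 1.

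**Figure D5:**
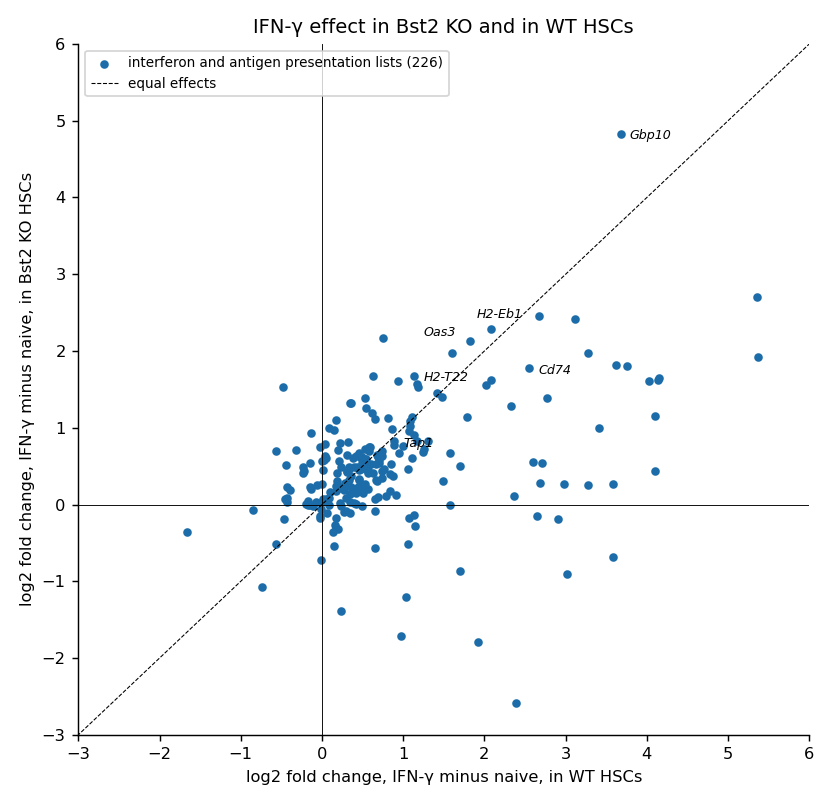
Log2 fold change (IFN-γ minus naive) of the 226 tested interferon and antigen presentation genes in *Bst2* KO HSCs (y axis) and in WT HSCs (x axis), 1 point a gene, with the dashed line marking equal effects. The points at the upper right (162 genes above 0 in both) outnumber those at the lower left (12 genes below 0 in both). Over all 10816 genes tested, not drawn, these counts were 3620 and 2193.

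The 5 genes of smallest p in the difference between KO and WT lay outside the interferon lists. *Ccdc88c*, a regulator of Wnt signalling, had 3156, 2533 and 176 units in treated and 2119, 1984 and 69.8 units in naive KO HSCs, with log2 fold changes of 0.75 in KO and −0.72 in WT HSCs (difference 1.47, SE 0.34, adjusted p = 0.933). *Rnaset2b*, one of a near-identical pair of ribonuclease genes whose reads may be shared, had −1.50 in KO and 0.89 in WT HSCs (difference −2.39, SE 0.59). In KO alone without R-09 its log2 fold change was −2.04, while that of its partner *Rnaset2a* was 5.85, in the other direction. *Nsun2*, an RNA cytosine methyltransferase, had the smallest difference of the 5, with −0.17 in KO and 0.31 in WT HSCs (difference −0.48, SE 0.12). The other two were *Ccdc136* and *Fam58b*, with differences of 5.33 (SE 1.34) and −1.31 (SE 0.33). None of the 5 passed after adjustment.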

How the data were processed

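RNA of sorted mouse HSCs was measured in 12 libraries, 3 in each of 4 groups (RNeasy, SMARTer Stranded Total RNA-Seq, NovaSeq, per the labels' protocols). The submitters' processing notes name STAR and DESeq without versions. The sources used here do not give the genome build, annotation or strand handling. The deposited values are a normalized signal per gene, made by the authors and not whole numbers. A second deposited table held the same values in another order and was not used.

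Columns were matched to samples by the library code in the titles. Of 24972 rows, 26 whose names had become dates were removed. Only 1.93% to 4.60% of values were whole multiples, within 0.01, of a step estimated in each library. No reads to which a count model could be applied were recovered. The estimated step lay above the lowest value, by far in KO naive 3 (58.7 against 0.267 units) and KO IFN-γ 1 (41.7 against 0.997 units). The check therefore cannot decide whether a smaller step exists. Values were tested as log2(signal + 1) with limma 3.58.1 (R 4.3.3; limma-trend, 4 group means plus code series, 6 residual degrees of freedom), with p-values adjusted by Benjamini-Hochberg over 10816 genes with at least 100 units in at least 3 libraries. A threshold of 0.05 was used. The procedure was tested on simulated data. With 3 libraries against 3 an exact permutation test cannot go below 0.1, so none was used.

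The genes and lists were chosen with earlier results of these data known. Named are *Bst2*, the 12 higher and 12 lower genes of smallest p with a mean log2 of at least 7 and no overlap, the 5 genes of smallest p in the difference between KO and WT, the genes of the sort gate, and up to 4 genes of each list. The members of the interferon and antigen presentation lists are given by counts, with examples picked after their values were seen. So were *Xist*, *Ddx3y*, *Eif2s3y*, *Kdm5d*, *Uty*, *Hlf*, *Sox17*, *Rnaset2a* and the markers of mature cells.

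Replicate numbers did not pair the libraries. This was judged from each library's deviations from its group mean, not from the expression values themselves. These deviations correlated at −0.69, −0.67 and 0.50 in same-numbered KO libraries, and at 0.64, 0.63 and 0.88 in those sharing a code series. Libraries of FL-06 and R-07 also correlated across these series, at 0.46 and 0.50, and all negative values were between R-09 and another series. The check therefore sets R-09 apart more clearly than it parts FL-06 from R-07. Taking out the group mean itself forces some negative values, which do not mean that expression was opposite. Alternatives changed the pseudocount, filter, covariate, libraries, normalization and weights. Promoters came from RefSeq's table and were matched by symbol. A few genes are not reported here.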

Additional observations from a re-analysis of the deposited data

Results flagged for a closer look

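*Oraov1* went opposite ways in the 2 genotypes, each without overlap between treated and naive libraries. In KO HSCs it was lower after IFN-γ by −0.68 on the log2 scale, and in WT HSCs it was higher by 0.70. The difference of the effects, KO minus WT, was −1.38 (limma unadjusted p = 0.0072, adjusted p = 0.933), so it did not pass after adjustment. Of the 10816 genes tested, 8 (0.074%) showed such opposite directions without overlap, and *Oraov1* is the 1 of them among the genes that the rules of the report named.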

How the results depend on the processing

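Over 84 genes and 1833 values under other settings, 1760 kept direction and side of the threshold, 66 passed only under the alternative and 7 changed sign, in *Jak1* and *Jak2*. The main counts were 0 genes past an adjusted p of 0.05, 183 higher and 135 lower at an unadjusted p under 0.05, and 132 higher and 105 lower without overlap. Adjusted calls numbered 6 with at least 100 units in all 12 libraries, 4 with the 6 KO libraries alone, 7 after quantile normalization, 7 with array weights and 65 without R-09 in KO alone, where 1 residual degree of freedom was left. All calls of the other settings were interferon or antigen presentation genes, while the last setting called genes both on and off these lists. Higher and lower genes at an unadjusted p under 0.05 numbered 330 and 216 without a filter, 21 and 4 without the code series, 279 and 206 in KO alone, 323 and 211 with array weights, and 471 and 390 in KO alone without R-09. With the replicate block in place of the code series they numbered 13 and 4; the numbers do not pair the libraries. Genes higher without overlap numbered 243 without a filter. They numbered 81 (63 lower) with at least 100 units in all 12 libraries and 1513 (1484 lower) without R-09, where fewer libraries make overlap rarer. Without R-09, 1 gene passed in the difference between KO and WT. Leaving out 1 library gave 0 to 7 adjusted calls, 129 to 401 higher and 72 to 316 lower genes, 278 to 998 higher and 252 to 839 lower genes without overlap, and 0 to 2 genes in the difference; where this left a group with fewer libraries, the spread was taken from the others. Signs turned for the median of monocyte, macrophage and dendritic cell genes without a filter (0.70), of receptor and signalling genes with at least 100 units in all 12 libraries (−0.035), of NF-kB targets without R-09 (−0.012 in both fits) and for *Jak1* after quantile normalization (0.023). Leaving out 1 library gave −0.13 to 0.070 for *Jak1*, −0.30 to 0.13 for *Jak2* and −0.21 to 0.10 for the IFITM median. The settings without R-09 were chosen after the data were seen. The causes were not tested. Without depth, the counting error of low values is unknown.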
